A study of Mus musculus with 12 samples.

Results

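The transcripts described here encode the proteins that remove, degrade or mark messenger RNA: decapping enzymes and their activators, 5′-3′ exonucleases, poly(A)-tail factors, microRNA silencing proteins, the nonsense-decay helicase, AU-rich element binding proteins and the exosome. A list of 43 genes was matched by symbol to a table of 15780 named genes. It held 36 of them. Lsm5, Lsm7, Pabpc1, Pabpc4, Ago1, Ago2 and Rc3h1 were not matched and were not analysed here. Of the 36, 33 passed the filter on dim probe sets, a mean over the 12 arrays of at least 5.57 on the log2 scale, and Lsm6, Ago3 and Hnrnpd did not. The list names genes by function, and it was drawn up with earlier results of these data known.

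The samples were primary hepatocytes, the main cells of the liver, from male C57BL/6J mice aged 8 weeks that were either wild type or Cnot6l knockout. Each preparation gave an input (its total RNA) and an IP (the RNA recovered with an antibody against CNOT6L), and the knockout IP served as the negative control for the antibody. Both genotypes thus had 3 input arrays and 3 IP arrays, 4 groups of 3 in all. The titles call the replicates biological, but no label says that they came from separate animals, so the tests measure the spread between these samples, which may be technical.

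CNOT6L is a deadenylase of the CCR4-NOT complex, which shortens poly(A) tails. A deadenylated mRNA can be decapped by DCP2, with help from DCP1, EDC3, EDC4, PATL1, DDX6 and the LSM1-7 ring, and then degraded from its 5′ end by XRN1, or degraded from its 3′ end by the exosome. The arrays measured how much mRNA of each of these factors was present in the cells and recovered with CNOT6L. They did not measure the proteins, so recovery of an mRNA says nothing of whether its protein binds CNOT6L.

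Array medians ranged from 6.31 to 6.45. In all 6 preparations the IP differed from its input in the array controls. The poly-A spike controls were 4.39 to 6.09 log2 units higher, and the gap between 3′ and 5′ Gapdh probe sets was 0.85 to 1.95 units wider. Their part in the differences between IP and input below was not tested. Hepatocyte markers were present (Alb at a mean of 14.88 in wild-type input), although Pck1 stood at 3.40. Of 7 Kupffer cell markers, Cd68 stood at 11.77 in wild-type input and the other 6 at 3.83 to 5.83. The filter was passed by 2 of 6 sinusoidal endothelial, 3 of 6 stellate, 2 of 4 cholangiocyte and 1 of 3 lymphocyte markers found in the table. Cnot6l itself was not lower in the arrays labelled knockout (9.12 to 9.34 in the knockout inputs, 8.44 to 9.51 in the wild-type inputs), and the labels name neither the deleted exons nor the probes' position. Knockout therefore means, here and below, the arrays labelled so, and every direction between genotypes rests on those labels.

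No member passed an adjusted p of 0.05 in any of the 5 comparisons made with limma on all 12 arrays. The replicate numbers pair the arrays, however, and with the preparation as replicate block several members passed. In wild type, IP against input, 2 of 33 members were called higher with the block (6.06%, against 2.41% of all genes tested), namely Edc3 and Tnrc6a, and 3 were called lower (9.09%, against 4.61%), namely Upf1, Exosc5 and Exosc10. Without the block 0 members were called, where 0.105% of all genes were called higher and 0% lower. Before adjustment, at p under 0.05, 4 members were higher (4.58% of all genes) and 6 were lower (6.03%). In knockout, IP against input, 0 members were called higher with the block (0.727% of all genes) and 3 were called lower (9.09%, against 5.28%), namely Upf1, Exosc3 and Exosc10. Without the block 0 members and 0% of genes were called in either direction, while 3 members were lower (8% of all genes) and 0 higher (2.97%) before adjustment, at p under 0.05. A block of the number inside input and IP alike, which leaves out how IP minus input varies between numbers, called more. In wild type it called 7 members higher (21.2%, against 7.8% of all genes) and 7 lower (21.2%, against 15.2%), and in knockout 3 higher (9.09%, against 4.52%) and 6 lower (18.2%, against 17.8%). These were Dcp1a, Dcp2, Ddx6, Edc3, Pum2, Tnrc6a and Tnrc6b (higher) and Lsm2, Upf1, Khsrp, Exosc2, Exosc5, Exosc8 and Exosc10 (lower) in wild type, and Ddx6, Pum2 and Tnrc6b (higher) and Lsm2, Upf1, Khsrp, Exosc3, Exosc5 and Exosc10 (lower) in knockout. Below, the block is the preparation unless stated. Leaving out 1 number in every group, in fits with fewer arrays, left 0 to 2 members called with the preparation as block in wild type and 0 in knockout. The share of all genes called in those fits is not given here. Exosc10 in wild type was still called without number 1 (-1.76, limma adjusted p = 0.0343), and had -1.42 and -1.47 without numbers 2 and 3. Edc3 ranged from 1.36 to 1.75 in these fits and Upf1 from -1.38 to -1.24 in wild type, neither being called. Positive values were seen for 19 members in wild type (57.6%, against 41.6% of all genes) and for 12 in knockout (36.4%, against 34.1%). After quantile normalization 21 members and 4414 of 9496 genes were positive in wild type, and 17 members and 4417 genes in knockout.

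**Figure D1:**
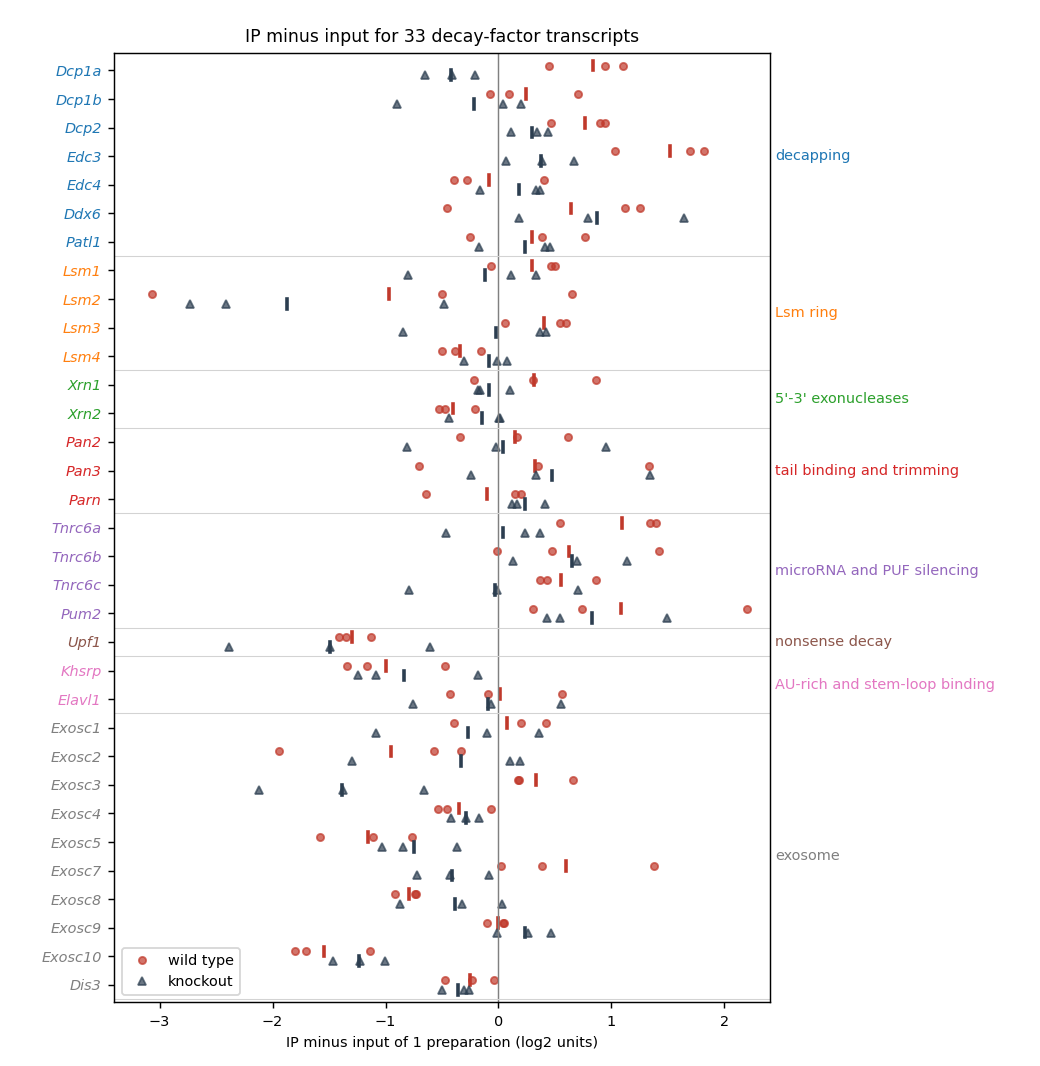
IP minus input in log2 units for each of the 33 tested members, grouped by role. Circles are the 3 wild-type preparations, triangles the 3 knockout preparations, and vertical bars their means. Edc3 lies to the right of 0 in all 6 preparations, Upf1 and Exosc10 to the left in all 6, and Dcp1a, Exosc3 and Exosc7 lie to the right in wild type and to the left in knockout.

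Of the 7 decapping factors, Edc3 alone passed in wild-type IP against input with the preparation as block, and none passed without it. Positive values were seen for 6 in wild type (median 0.64), where 41.6% of all genes were positive, and for 5 in knockout (median 0.23), where 34.1% were. The medians over all genes tested were -0.11 and -0.21. After quantile normalization the counts were 7 and 5. Edc3 encodes an enhancer of decapping that binds DDX6 and DCP1. Its levels were 8.06, 7.48 and 7.62 in wild-type input and 9.76, 9.30 and 8.66 in wild-type IP. They were 8.26, 7.63 and 7.75 in knockout input and 8.93, 7.70 and 8.13 in knockout IP. All wild-type IP arrays lay above all wild-type inputs, while the knockout groups overlapped. The wild-type difference was 1.51 ± 0.39 (SE), or 2.86-fold, with an adjusted p of 0.182 by limma and 0.0157 with the replicate block. The knockout difference was 0.37 ± 0.39 (adjusted p = 0.771, 0.322 with the block).

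Dcp1a encodes a cofactor of the decapping enzyme. Its levels were 5.99, 5.56 and 5.85 in wild-type input and 6.43, 6.66 and 6.80 in wild-type IP. They were 5.97, 5.61 and 5.85 in knockout input and 5.76, 4.96 and 5.44 in knockout IP. The 3 wild-type IP arrays were the highest of the 12, and the knockout IP array with number 2 was the lowest. The wild-type difference was 0.83 ± 0.28 (adjusted p = 0.313, 0.0539 with the block) and the knockout difference -0.42 ± 0.28 (adjusted p = 0.624, 0.234 with the block). Dcp2, the decapping enzyme itself, was higher in the IP in all 6 preparations, by 0.89, 0.94 and 0.46 in the wild-type preparations and by 0.34, 0.44 and 0.11 in those of the knockout. Its input and IP groups did not overlap in wild type, nor in knockout. It passed in neither wild type (adjusted p = 0.35, 0.0564 with the block) nor knockout (adjusted p = 0.749, 0.364 with the block). Non-overlap in this direction was seen for 6 members in wild type (18.2%), against 7.72% of all genes, and for 2 in knockout (6.06%), against 5.31%. Dcp1b, the paralogue of Dcp1a, had 0.24 in wild type and -0.22 in knockout, and the scaffold gene Edc4 had -0.09 and 0.18. Ddx6, the decapping activator helicase, had 0.64 and 0.87, and Patl1, the bridge between deadenylation and decapping, had 0.30 and 0.23. None of these 4 passed without a block or with the preparation as block.

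The Lsm ring had 4 tested members, of which 2 had positive values in wild type (41.6% of all genes) and 0 in knockout (34.1%). Quantile normalization gave 3 in knockout, where 4417 of 9496 genes were then positive. Lsm2 encodes a subunit shared by the cytoplasmic ring and the nuclear ring that binds U6 RNA. Its levels were 7.77, 7.26 and 6.83 in wild-type input and 4.71, 7.91 and 6.33 in wild-type IP. They were 7.28, 7.42 and 7.34 in knockout input and 4.55, 6.94 and 4.93 in knockout IP. Both IP arrays with number 1 and the knockout IP array with number 3 were low, and the other 9 arrays lay between 6.33 and 7.91. The knockout groups did not overlap, as was the case for 3 members in the lower direction (9.09%) and for 10.1% of all genes. The difference was -1.87 ± 0.74 in knockout (adjusted p = 0.386, 0.11 with the block) and -0.97 ± 0.74 in wild type (adjusted p = 0.669, 0.36 with the block). Lsm1, the subunit that marks the cytoplasmic ring, had 0.30 in wild type and -0.12 in knockout. Lsm3 had 0.40 and -0.02, and Lsm4 had -0.35 and -0.08. None of the 3 passed.

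Neither 5′-3′ exonuclease passed in IP against input. Xrn1 encodes the cytoplasmic enzyme that degrades decapped mRNA. Its levels were 5.15, 6.58 and 7.00 in wild-type input, 6.01, 6.89 and 6.79 in wild-type IP, 6.00, 6.78 and 7.11 in knockout input and 5.81, 6.88 and 6.95 in knockout IP. The array with number 1 was the lowest in every group, and all groups overlapped. The difference was 0.32 ± 0.51 in wild type (95% interval -0.80 to 1.44) and -0.08 ± 0.51 in knockout. Xrn2, the nuclear exonuclease that takes part in transcription termination, had -0.40 and -0.14. Its wild-type IP arrays (8.69 to 8.87) all lay below the inputs (8.94 to 9.34). Neither gene passed in any comparison.

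Among the genes for poly(A)-tail trimming, 3 were tested and none passed. Parn encodes a poly(A)-specific ribonuclease. Its levels were 8.50, 8.35 and 8.16 in wild-type input, 7.86, 8.55 and 8.30 in wild-type IP, 8.11, 8.47 and 8.21 in knockout input and 8.52, 8.64 and 8.33 in knockout IP. The groups overlapped, and the 12 arrays spanned 0.77 log2 units. The difference was -0.10 ± 0.27 in wild type, which became 0.05 after quantile normalization, and 0.23 ± 0.27 in knockout. Pan2, the catalytic subunit of the PAN deadenylase, had 0.15 in wild type and 0.04 in knockout. Its adaptor Pan3 had 0.33 and 0.47.

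In the silencing group, all 4 tested members had positive values in wild type (median 0.85), where 41.6% of all genes did. In knockout 3 did (median 0.35), where 34.1% of all genes did. After quantile normalization all 4 did in both genotypes, as did 4414 of 9496 genes in wild type and 4417 in knockout. Tnrc6a encodes GW182, the scaffold through which Argonaute proteins recruit the CCR4-NOT complex. Its levels were 8.43, 8.96 and 9.75 in wild-type input and 9.83, 10.30 and 10.29 in wild-type IP. They were 8.96, 8.90 and 9.50 in knockout input and 9.19, 9.26 and 9.04 in knockout IP. The wild-type IP arrays lay above those of every other group. The wild-type difference was 1.09 ± 0.35 (2.13-fold; adjusted p = 0.273, 0.0416 with the block), and the knockout difference 0.04 ± 0.35 (adjusted p = 0.977, 0.926 with the block). Its paralogues had 0.63 (Tnrc6b) and 0.56 (Tnrc6c) in wild type, and 0.65 and -0.03 in knockout. Pum2 encodes a Pumilio protein that binds 3′ ends of mRNAs and recruits deadenylases. It was higher in the IP in all 6 preparations, by 2.20, 0.74 and 0.31 in wild type and by 1.49, 0.55 and 0.43 in knockout. The preparations with number 1 had the largest values in both genotypes. Pum2 did not pass (adjusted p = 0.104 in wild type and 0.184 in knockout with the block).

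Being higher in the IP in all 6 preparations was shared by 3 members, Dcp2, Edc3 and Pum2 (9.09%), and by 6.54% of all genes. Being lower in all 6 was shared by 6 members, Upf1, Khsrp, Exosc4, Exosc5, Exosc10 and Dis3 (18.2%), and by 23.3% of all genes.

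Upf1 encodes the RNA helicase at the centre of nonsense-mediated decay, the pathway that removes mRNAs with premature stop codons. Its levels were 8.74, 8.17 and 8.26 in wild-type input and 7.39, 7.05 and 6.85 in wild-type IP. They were 8.95, 8.13 and 8.31 in knockout input and 7.46, 5.74 and 7.70 in knockout IP. In each genotype every IP array lay below every input array. The difference was -1.30 ± 0.46 in wild type (2.46-fold lower; adjusted p = 0.349, 0.0430 with the block) and -1.49 ± 0.46 in knockout (2.82-fold lower; adjusted p = 0.297, 0.0357 with the block). Both calls were lost when the arrays were also quantile normalized, with adjusted p = 0.0827 in wild type and 0.102 in knockout. Leaving out the knockout IP array numbered 2 took the knockout difference to -0.88. The difference between the genotypes was 0.20 ± 0.66 (95% interval -1.24 to 1.63, or -0.80 to 1.19 with the block). Non-overlap in the lower direction was seen for 5 members in wild type (15.2%), against 7.59% of all genes.

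Among the AU-rich element binding genes, Khsrp, a protein that promotes decay of AU-rich mRNAs, was lower in the IP in all 6 preparations. Its levels were 8.88, 10.29 and 10.07 in wild-type input and 8.41, 9.13 and 8.73 in wild-type IP. They were 8.78, 10.07 and 10.01 in knockout input and 8.60, 8.98 and 8.77 in knockout IP. Inputs with number 1 were more than a log2 unit below the other inputs and overlapped the IP arrays. The difference was -0.99 ± 0.44 in wild type and -0.84 ± 0.44 in knockout, and did not pass (adjusted p = 0.0622 and 0.0942 with the block). Elavl1 encodes HuR, which stabilises AU-rich mRNAs, and had 0.01 and -0.09.

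Exosc5 and Exosc10 of the exosome passed in wild type, and Exosc3 and Exosc10 in knockout, all with the preparation as block. Of 10 tested subunits, 7 had negative values in wild type (median -0.30, range -1.55 to 0.60) and 9 in knockout (median -0.37, range -1.39 to 0.24), where most genes of the table were negative too. After quantile normalization 6 were negative in wild type and 9 in knockout. Exosc10 encodes RRP6, the nuclear 3′-5′ exonuclease of the complex. Its levels were 9.42, 9.65 and 8.54 in wild-type input and 8.29, 7.85 and 6.83 in wild-type IP. They were 9.43, 9.60 and 8.59 in knockout input and 8.43, 8.14 and 7.36 in knockout IP. The groups did not overlap in either genotype, and the arrays with number 3 were the lowest in every group. The difference was -1.55 ± 0.47 in wild type (2.92-fold lower; adjusted p = 0.261, 0.0127 with the block) and -1.23 ± 0.47 in knockout (2.35-fold lower; adjusted p = 0.361, 0.0257 with the block). With quantile normalization and the block it passed in wild type (0.0200) and not in knockout (0.0823).

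Exosc5 encodes RRP46, a subunit of the exosome's core ring. Its levels were 9.49, 9.04 and 8.27 in wild-type input and 7.91, 7.94 and 7.50 in wild-type IP. They were 9.15, 9.17 and 8.50 in knockout input and 8.78, 8.14 and 7.66 in knockout IP. The wild-type groups did not overlap, and the knockout groups did. The difference was -1.15 ± 0.39 in wild type (2.22-fold lower; adjusted p = 0.309, 0.0291 with the block) and -0.75 ± 0.39 in knockout (adjusted p = 0.511, 0.0863 with the block). The wild-type call was lost when quantile normalization was added (adjusted p = 0.0586).

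Exosc3 encodes RRP40, an RNA-binding cap subunit, and had its lowest value in the negative control. Its levels were 8.28, 9.20 and 7.60 in wild-type input and 8.44, 9.38 and 8.25 in wild-type IP. They were 8.67, 9.14 and 7.83 in knockout input and 7.28, 8.49 and 5.71 in knockout IP. The knockout IP array was the lowest of the 4 arrays of every number. As groups, the knockout IP arrays overlapped both the knockout inputs and the wild-type IP arrays. The difference was -1.39 ± 0.66 in knockout (2.61-fold lower; adjusted p = 0.468, 0.0351 with the block, and 0.105 with quantile normalization and the block) and 0.33 ± 0.66 in wild type (adjusted p = 0.897, 0.467 with the block). Leaving out the knockout IP array numbered 3 took the knockout difference to -0.66.

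Exosc7, a ring subunit, had 0.60 in wild type and -0.41 in knockout, with same-preparation values of 0.39, 0.03 and 1.38 against -0.72, -0.42 and -0.08. Of the others, Exosc2 had -0.95 and -0.33, and Exosc8 had -0.80 and -0.39. Exosc1 had 0.08 in wild type and -0.27 in knockout, Exosc4 had -0.35 and -0.29, and Exosc9 had -0.0030 and 0.24. Dis3, the catalytic nuclease that docks to the ring, had -0.25 and -0.36. None of these 7 passed without a block or with the preparation as block, while Exosc2 and Exosc8 passed in wild type with the block inside input and IP alike (adjusted p = 0.00795 and 0.0373).

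**Figure D2:**
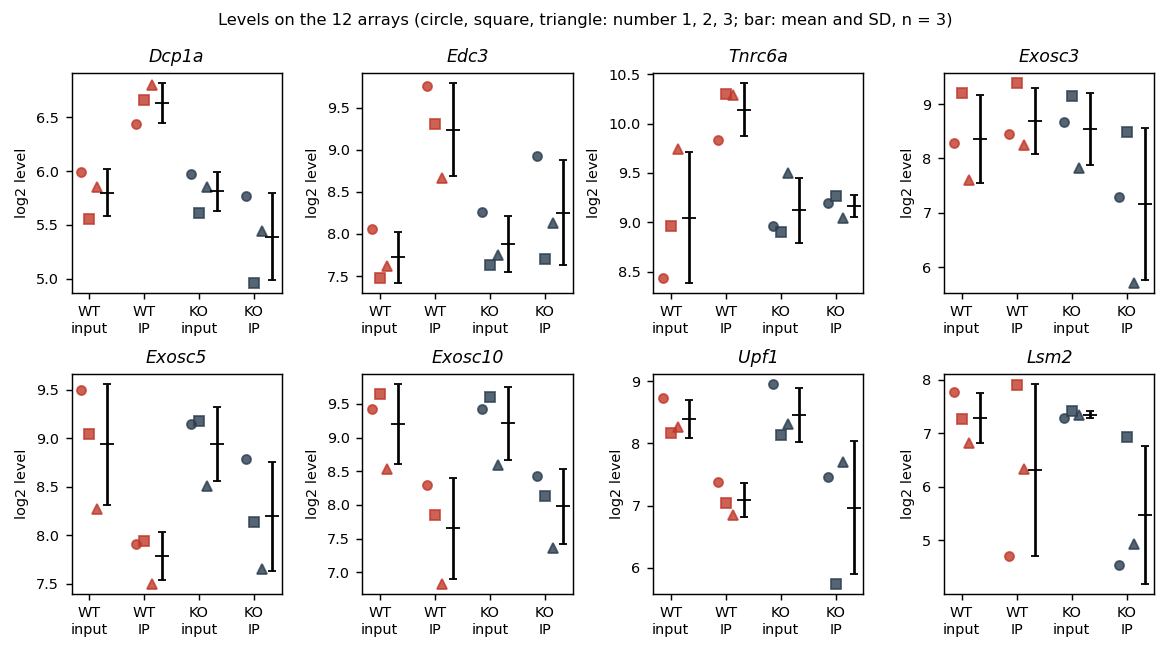
Log2 levels of 8 members on the 12 arrays, with wild type in red and knockout in dark blue. Circle, square and triangle mark numbers 1, 2 and 3, and bars give the mean and SD of 3 arrays. Tnrc6a and Dcp1a are highest in wild-type IP, and Upf1 and Exosc10 are lower in both IP groups than in the inputs. Exosc3 has its lowest mean in knockout IP, but its groups overlap.

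The antibody's background was taken into account by taking the IP minus input value in wild type less the same value in knockout, called specific enrichment here. This comparison called 0 of 33 members by limma (0.0105% of all genes higher, 0% lower) and 0 with the replicate block (0.0211% higher). The block inside input and IP alike also called 0 members (0.358% of all genes higher, 0% lower). Without a block, at an unadjusted p under 0.05, 1 member was higher, Dcp1a (1.83% of all genes), and 0 were lower (0.147%). The median of the members was 0.11, beside 0.05 over all genes, and 19 of 33 were positive (57.6%, against 55.8%). The members as a list were thus close to the other genes.

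The largest specific enrichments were those of Exosc3, with 1.72 ± 0.93, and Dcp1a, with 1.26 ± 0.40. Their order rests on single arrays: without the knockout IP array numbered 3, Exosc3 had 0.996 and Dcp1a 1.28, and without that numbered 2, Exosc3 had 2.38. Edc3 had 1.14 ± 0.55, Tnrc6a 1.05 ± 0.49 and Exosc7 1.01 ± 0.64. The same-number values were 1.55, 0.84 and 2.77 for Exosc3 and 0.65, 1.75 and 1.36 for Dcp1a. Those of Edc3 were 1.02, 1.75 and 0.65, those of Tnrc6a 1.16, 0.98 and 1.01, and those of Exosc7 1.11, 0.45 and 1.46. These 5 genes are given because their values were the highest, and none passed (adjusted p = 1.0 for each without the block). With the block the adjusted p was 0.23 for Exosc3, 0.251 for Dcp1a, 0.395 for Edc3, 0.579 for Tnrc6a and 0.716 for Exosc7. The lowest value was that of Exosc2 (-0.62 ± 0.57). By role the medians were 0.46 for decapping, 0.42 for the Lsm ring and for silencing, and -0.15 for the exosome, with 5 of 7, 3 of 4, 3 of 4 and 4 of 10 members positive. The median half-width of the members' 95% intervals was 1.24 log2 units, and 0.85 with the block. Differences below about that size could not be resolved for most members. The intervals are not adjusted for the number of genes tested, and Exosc3 and Dcp1a exceeded these half-widths without passing.

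**Figure D3:**
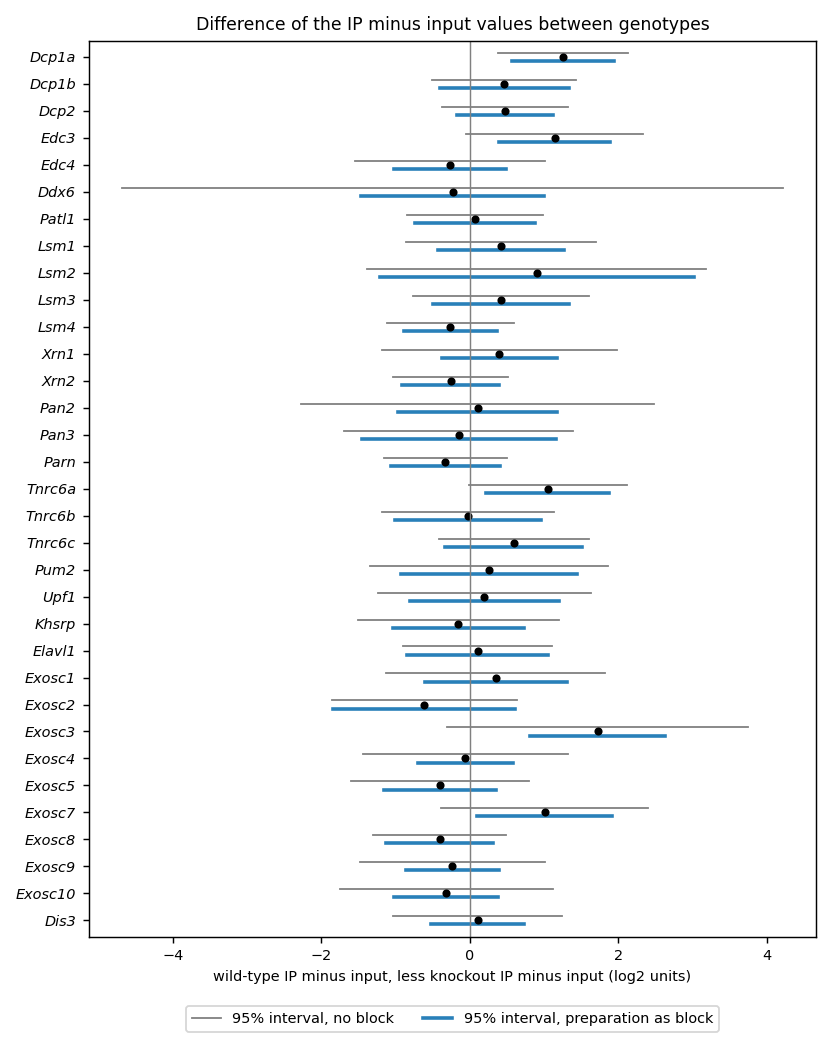
Specific enrichment of the 33 tested members in log2 units (points), with 95% intervals from the fit without a block (thin grey lines) and with the preparation as block (thick blue lines). Exosc3, Dcp1a, Edc3, Tnrc6a and Exosc7 have the highest values, and Ddx6 has the widest interval without a block.

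Wild-type and knockout IP were also set side by side, using the same IP arrays as above. With the number as block 2 of 33 members were called higher in wild type (6.06%, against 2.33% of all genes) and 0 lower (0.126%). Without it 0 were called (0.253% of all genes higher, 0% lower), and before adjustment, at p under 0.05, 4 members were higher (4.78%) and 0 lower (0.611%). The block inside input and IP alike called 4 higher (12.1%, against 3.58%) and 1 lower, Exosc2 (3.03%, against 0.421%). Leaving out 1 number in every group left 0 to 1 call with the number as block, and the share of all genes is not given for those fits. Dcp1a was 2.37-fold higher, a difference of 1.24 ± 0.28 with same-number values of 0.67, 1.70 and 1.36 (adjusted p = 0.157, 0.0124 with the block). It also passed when quantile normalization was added to the block (adjusted p = 0.00695). Dcp1a was dim, with a mean of 5.91 over the 12 arrays, beside the filter value of 5.57. Its mean in knockout IP, 5.39, lay under that value. The Dcp1a differences here and in specific enrichment thus rest on a knockout IP group near the cut-off for dim probe sets. Exosc3 was 2.89-fold higher, a difference of 1.53 ± 0.66 with same-number values of 1.16, 0.90 and 2.54 (adjusted p = 0.839, 0.0230 with the block, and 0.0730 with quantile normalization and the block). Without the knockout IP array numbered 3 the Exosc3 difference was 0.81, and without that numbered 2 it was 2.19. Edc3 had 0.98 ± 0.39 (adjusted p = 0.0512 with the block) and Tnrc6a 0.98 ± 0.35 (0.0912). Groups did not overlap for 3 members, Dcp1a, Tnrc6a and Tnrc6c (9.09%, against 5.44% of all genes), and in the lower direction for 0 (1.35%). Positive values were seen for 19 members (57.6%, against 54.1%).

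The inputs compare steady-state mRNA of the decay factors between knockout and wild-type hepatocytes. Here 0 of 33 members were called with or without the block, as for all genes (0% in either direction), and 0 members passed an unadjusted p of 0.05 (0.0316% of all genes higher, 0.0211% lower). Positive values were seen for 24 members (72.7%, against 53.9%). After quantile normalization they were seen for 21 members and for 4848 of 9496 genes. As deposited, differences ranged from -0.15 for Patl1 to 0.39 for Xrn1, with a median of 0.05. With the number as block the 95% intervals had a median half-width of 0.54 and lay between -1.25 and 1.37 for all 33, both limits being those of Lsm2. For Edc3 the interval was -0.35 to 0.66, and for Dcp1a -0.45 to 0.47. Without the block the median half-width was 0.88, and the intervals lay between -3.15 and 3.15, both limits being those of Ddx6. No member's inputs were without overlap between the genotypes, in either direction (0.663% and 0.958% of all genes).

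Replicate number accounted for much of the variation of some members. It took a median of 32.0% of the sum of squares over the 12 arrays, against 12.9% for IP or input and 2.88% for genotype. Over all genes tested the medians were 47.5%, 12.9% and 2.08%. Number has more levels than IP or input and than genotype, so its share would be larger even for values without structure. Number took more than 50% for 12 of 33 members (36.4%, against 47.2% of all genes). The largest share was that of Ddx6 (91.4%), here described after its values were seen. Its levels were 5.31, 9.12 and 9.89 in wild-type input, 6.57, 10.24 and 9.43 in wild-type IP, 5.40, 9.30 and 9.63 in knockout input and 7.04, 10.09 and 9.81 in knockout IP. In every group the array with number 1 was lower than the other 2 by more than 2 log2 units. Pan2 (87.8%) was highest with number 3, at a mean of 8.77 against 6.73 and 7.42. Exosc4 and Exosc9 (83.8% and 82.9%) were lowest with number 3, and Edc4 (83.1%) with number 2. Exosc10, Upf1, Exosc5, Exosc8 and Dcp2 instead had more than 50% between IP and input, as 10.6% of all genes did (15.2% of members). Dcp1a had the largest share for genotype (37.9%).

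**Figure D4:**
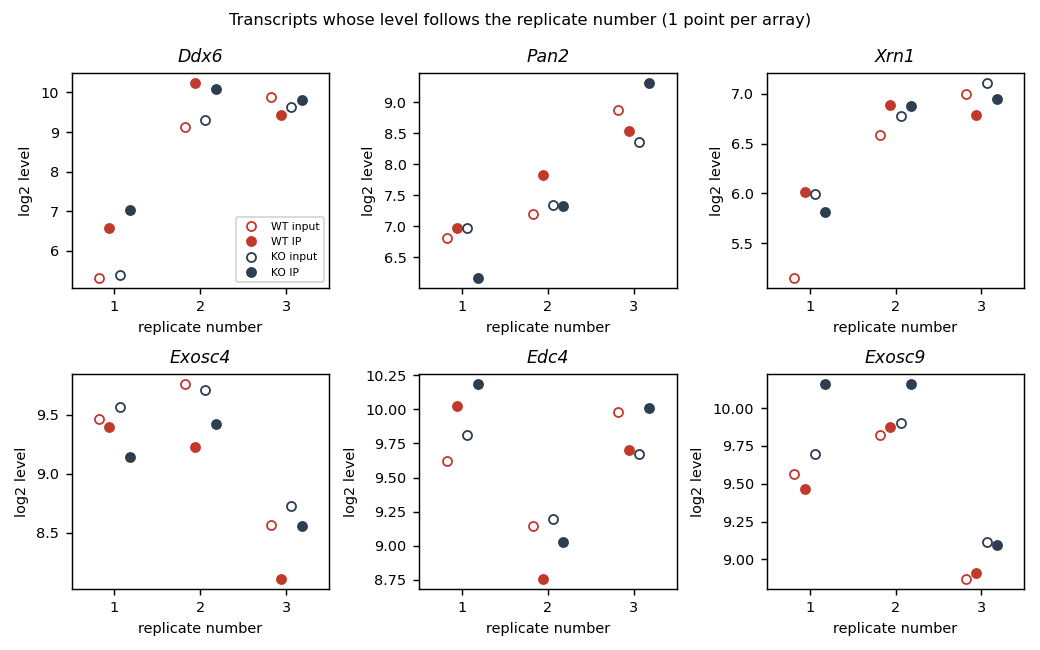
Log2 levels of 6 members by replicate number, 1 point per array, with open circles for input and filled circles for IP, wild type in red and knockout in dark blue. Ddx6 and Xrn1 are low with number 1 in all 4 groups, Exosc4 and Exosc9 are low with number 3, and Edc4 is low with number 2.

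A further list of 44 decay and RNA-binding genes, listed by function with earlier results known, had 29 tested members. Without the block 0 of them were called in any comparison. With it, in wild type 1 was called higher in the IP (Paip2; 2.41% of all genes) and 2 lower (Gspt1 and Fxr2; 4.61%). In knockout 0 were called higher (0.727%) and 2 lower (Gspt1 and Fxr2; 5.28%), and between the IPs 1 was called higher in wild type (Paip2; 2.33%). Paip2 encodes an inhibitor of the poly(A)-binding protein. It had 1.10 ± 0.36 in wild type (adjusted p = 0.0337 with the block), -0.40 ± 0.36 in knockout, and 1.33 ± 0.36 between the IPs (adjusted p = 0.0154 with the block). Gspt1, the translation termination factor eRF3, had -1.48 ± 0.60 and -1.45 ± 0.60 (adjusted p = 0.0386 and 0.0451 with the block). Fxr2, a relative of the fragile X protein, had -1.07 ± 0.28 and -1.39 ± 0.28 (0.0285 and 0.0227). In specific enrichment and between the inputs 0 were called with or without the block.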

How the data were processed

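RNA of 12 samples was hybridised to Affymetrix mouse genome arrays, per the series text. The deposited values are log2 values, as read from their range, with 1 value per probe set and array. How the authors corrected, normalized and summarised them is not stated in the labels. Of 16539 probe sets, 64 were controls, 15780 carried 1 symbol, 0 several, and 695 were unnamed here. Precision is limited by having 3 arrays in each group.

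Genes at or above the 40th percentile of the mean over all arrays (5.57) were tested, 9496 in all. Differences were fitted with limma 3.58.1 in R 4.3.3 with the 4 group means as the model, on all 12 arrays with 8 residual degrees of freedom. Tests were two-sided, p was adjusted over all genes tested (Benjamini-Hochberg), and the threshold was 0.05. The ± values are moderated standard errors of the fit without a block, also where the p beside them is that with the block. The fit without a block was tested on simulated data with independent noise. The fits with a block were not tested in this way. Figures used matplotlib 3.10.9.

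Each preparation was split into input and IP, per the series text. Deviations from the group means correlated at 0.453 to 0.936 in the 18 same-number pairs from different groups, so the numbers pair the samples also between genotypes. The 36 different-number pairs correlated at -0.711 to 0.0685. Deviations within a group cancel out by construction, so these lower values are no separate evidence of pairing. The replicate block is the preparation for IP against input and specific enrichment (4 residual degrees of freedom) and the number between genotypes (6). Members and lists were chosen with earlier results of these data known. Values of every array are given for members called with or without the block and for the member of each role with the largest absolute specific enrichment. Other members are given by value, range and count.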

Additional observations from a re-analysis of the deposited data

Results flagged for a closer look

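In 3 members the IP was higher than the input in all 3 wild-type preparations and lower in all 3 knockout preparations, a pattern seen in 1.66% of all genes tested and in 9.09% of members. Their specific enrichments were 1.26 for Dcp1a, 1.72 for Exosc3 and 1.01 for Exosc7. The pattern itself was not tested. The difference between the genotypes was tested as specific enrichment and did not pass for any of the 3 (limma adjusted p = 1.0 for each without the block, and 0.251, 0.230 and 0.716 with it). The opposite pattern was seen in 0 members and 0.179% of genes.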

How the results depend on the processing

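Without the block 0 members were called in any comparison under quantile normalization, either other filter, the fits on 6 arrays or leaving out any single array. The share of all genes called in these fits is not given. In the main fit without the block it was at most 0.253% in any comparison and direction, so 0 members says little about the list. With the replicate block 5 members were called in wild-type IP against input, 3 in knockout IP against input and 2 between the IPs, and 0 in specific enrichment or between inputs. With quantile normalization and the block these counts were 3, 0 and 1. The share of all genes called in that fit is not given, so whether the drop is particular to the members was not tested. Blocking by number inside input and IP alike, the counts of members were 14, 9 and 5, and 0 in specific enrichment or between inputs. That fit takes no account of how IP minus input varies between numbers. Leaving out 1 number in all 4 groups, an alternative chosen after seeing the data, left 0 to 2 calls with the block in wild type, 0 in knockout and 0 to 1 between the IPs. Without number 1 the wild-type calls were Exosc10 and Khsrp and the call between the IPs was Dcp1a. These fits have fewer arrays, and the share of all genes called in them is not given. The median of the members in knockout IP against input was -0.09 as deposited and 0.12 after quantile normalization, with or without the block, while that of all genes went from -0.21 to -0.04. Leaving out a single array moved the members' median within -0.0071 to 0.29 for specific enrichment, -0.03 to 0.21 for wild-type IP against input, -0.18 to -0.03 in knockout, -0.079 to 0.21 between the IPs and -0.049 to 0.10 between inputs. Leaving out a number with the block gave -0.22 to -0.03 in knockout. Of 1184 values of 11 members under the alternatives, 35 passed where the fit without a block did not, and 74 changed sign while having an unadjusted p of at least 0.05 in both fits.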
